A study of Mus musculus with 2 samples.

Results

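Chromosome 11 had the highest median replication timing score of all mouse chromosomes measured in 46C embryonic stem cells, a mouse line with a green fluorescent reporter in the Sox1 gene, and it was selected on that median, a value of these same data. Its members were all positions that the deposited table places on chromosome 11, 19089 of the 384794 positions with a value (4.96%), and 2 further positions there held no value. They ran from 3101788 to 121957529 in mm10 coordinates, at a median spacing of 5767 bp. All values compare 1 early S phase library with 1 late S phase library of the same cells, strain 129P2/Ola, grown on gelatin with leukemia inhibitory factor. Both fractions were labelled for 2 h with 50 µM BrdU, a thymidine analogue built into new DNA, and sorted by propidium iodide content. BrdU-containing DNA from 10000 cells was precipitated with an antibody, amplified over the whole genome and sequenced on the Ion Torrent platform. The deposited score sets both libraries against each other at each position and was smoothed over 300 kb. A score above 0 was taken to mean early, because the table is named early against late, and its log base, scaling and zero point were not stated in the available sources. Each fraction had 1 library, so no value has an error between experiments, no test was possible and the read depth is unknown. The score measures no expression, so the labelled cell type was not checked against marker genes.

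Replication timing is the order in which stretches of chromosome are copied during S phase. Early stretches are known to be rich in genes and active chromatin, and late stretches poor in genes and often held near the nuclear lamina. Timing is organised in domains, since neighbouring origins fire at similar times, and domains are joined by transition regions through which forks move. Mouse chromosome 11 is known as a gene-rich chromosome, which carries Trp53, Brca1, the Hoxb cluster, the alpha-globin genes and the keratin genes of type I.

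The sequences at the extremes of the chromosome show what lay at its earliest and latest genes. Shown are the 250 bases before a start site, from RefSeq promoters of GRCm38.p6, written in the direction of transcription, with each CG dinucleotide in capitals. Stat5b, which encodes a signal transducer of cytokine receptors, holds the highest position of the chromosome, and Trp53, the gene of the tumour suppressor p53, was the earliest of the replication and repair list. Olfr395, an olfactory receptor gene, was the latest protein-coding gene, and Krtap4-6, which encodes a matrix protein of hair, the latest keratin-associated gene.
Stat5b (chr11:100850582-100850831, minus strand, the first of 2 listed start sites): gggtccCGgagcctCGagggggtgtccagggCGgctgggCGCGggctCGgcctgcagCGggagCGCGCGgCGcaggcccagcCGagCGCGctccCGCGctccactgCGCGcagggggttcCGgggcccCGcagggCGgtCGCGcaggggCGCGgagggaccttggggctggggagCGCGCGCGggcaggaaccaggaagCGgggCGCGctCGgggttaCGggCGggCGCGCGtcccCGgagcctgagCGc
Stat5b (chr11:100822571-100822820, minus strand, the second listed start site): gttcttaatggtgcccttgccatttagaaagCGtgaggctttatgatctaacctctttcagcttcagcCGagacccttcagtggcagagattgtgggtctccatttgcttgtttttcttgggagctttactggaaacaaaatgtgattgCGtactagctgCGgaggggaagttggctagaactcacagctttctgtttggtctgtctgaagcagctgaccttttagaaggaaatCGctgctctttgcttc
Trp53 (chr11:69580109-69580358, plus strand): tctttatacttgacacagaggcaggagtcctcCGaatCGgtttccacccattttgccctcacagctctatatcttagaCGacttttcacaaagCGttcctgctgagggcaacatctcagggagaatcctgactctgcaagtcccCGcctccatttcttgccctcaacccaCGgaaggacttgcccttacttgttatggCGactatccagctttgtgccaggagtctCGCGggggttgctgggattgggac
Olfr395 (chr11:73907491-73907740, minus strand): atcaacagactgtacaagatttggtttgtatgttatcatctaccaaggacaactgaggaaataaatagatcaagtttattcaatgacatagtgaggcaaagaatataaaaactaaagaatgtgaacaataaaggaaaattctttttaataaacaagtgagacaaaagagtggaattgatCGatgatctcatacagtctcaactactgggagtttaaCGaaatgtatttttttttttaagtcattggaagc
Krtap4-6 (chr11:99665961-99666210, minus strand): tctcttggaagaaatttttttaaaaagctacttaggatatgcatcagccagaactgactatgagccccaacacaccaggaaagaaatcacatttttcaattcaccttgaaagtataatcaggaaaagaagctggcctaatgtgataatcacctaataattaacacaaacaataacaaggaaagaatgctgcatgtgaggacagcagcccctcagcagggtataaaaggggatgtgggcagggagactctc
The Stat5b stretches held 40 CG dinucleotides at a GC content of 82% and, at the second start site, 5 at 46.4%. The second site lay at the earliest position, with a score of 2.05, and the first had 1.96. The Trp53 stretch held 9 at 52.8%. The Olfr395 stretch held 2 at 30.4%, and that of Krtap4-6 held 0 at 40.4%. Other late genes, whose stretches are not printed, varied more. Their scores in brackets are those at the gene midpoint. Sgcd (-1.33) held 9 at 58%, as many as Trp53, and Gabrb2 (-1.45) held 8, 8 and 4 at its 3 listed start sites. Tenm2 (-1.33) held 2 at 37.2%, and the stretches of Kcnj16 (-1.35) held 1 to 7. At the start sites the scores were -1.20 for Sgcd, -1.36 for Gabrb2, -1.45 for Tenm2 and -1.43 to -1.29 for Kcnj16. The listed start sites of Sgcd and Tenm2 lie well inside the gene spans. The letters searched were CG, which read alike on both strands, and 94.9% of the 2289 promoters listed for chromosome 11 held at least 1, against 92.1% of all 32851. The 4 genes printed above were picked for their scores and do not stand for the rest. A relation between promoter CpG and score was planned and is void, since promoter sequences were given for 1271 of the 1602 protein-coding genes (79.3%), below the minimum of 80%.

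Over its positions chromosome 11 had a median score of 0.71, with quartiles of -0.84 and 1.51. The next chromosomes in order were 19 with 0.21, 7 with 0.07 and 5 with 0.05, and the lowest was chromosome 3 with -0.83. Of its positions 60.5% lay above 0, against 43.1% over all chromosomes, and this share was again the highest. Taken at 1 position per 300 kb the share was 231 of 397 (58.2%, 95% exact binomial interval 53.2 to 63.1%, which covers the sampling of positions only). The ranks by median and by share are what the choice of the chromosome rests on and are no separate findings. Moving the zero point to the autosomal median of -0.30 gave 65.6%.

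**Figure D1:**
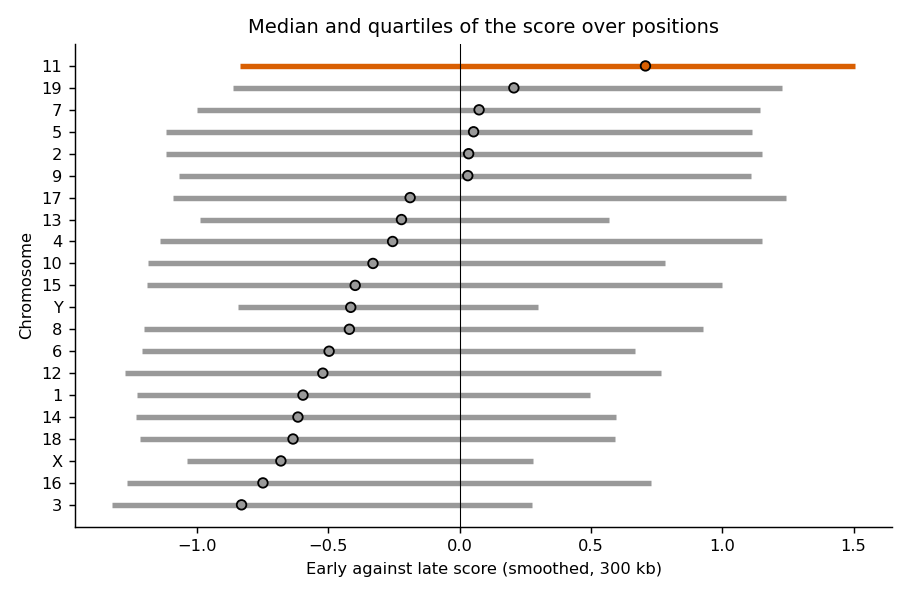
Median (point) and quartiles (bar) of the smoothed score over the positions of each chromosome, in order of the median. Chromosome 11, in orange, has its median at 0.71 and its upper quartile at 1.51.

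The chromosome was not shifted evenly towards early scores. Its late positions had a median of -1.09, close to the -1.12 of the other autosomes, and both had their late peak at -1.35. Its early positions had a median of 1.42, against 1.02 on the other autosomes, and its early peak lay at 1.65 against 1.55. Scores over 1 took 44.3% of positions, against 21.8% on the other autosomes. Scores under -1 took 21.8%, against 33.4%, and 15.7% lay within 0.5 of 0, against 20.3%. The single latest position had -1.77, at 24882810, in a stretch without protein-coding genes 709 kb beyond the transcription factor gene Bcl11a. The single earliest had 2.05, at 100820860 inside Stat5b, 49.9 kb from Ghdc and 38.5 kb from Stat5a.

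Early scores were unevenly spread along the chromosome. The first 10 Mb segment, of which the part from 3.10 Mb was measured, had a median of 1.31. From 10 to 50 Mb the 4 segment medians were -0.94, -0.06, -0.38 and -0.99, and between 17.4 and 47.5% of positions lay above 0. From 50 Mb to the end all 8 segments had medians above 0, from 0.70 between 60 and 70 Mb to 1.58 in the last segment. All 323 positions beyond 120 Mb lay above 0. The 4 segments from 10 to 50 Mb held 23, 45, 47 and 81 protein-coding genes. The 7 full segments after them held more, 129 to 226 each, and the partly covered first segment held 90. Within these stretches gene number and median did not always run together. The segment from 40 to 50 Mb, with 81 genes, had the lowest median, and that from 60 to 70 Mb had 0.70 with 162 genes.

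**Figure D2:**
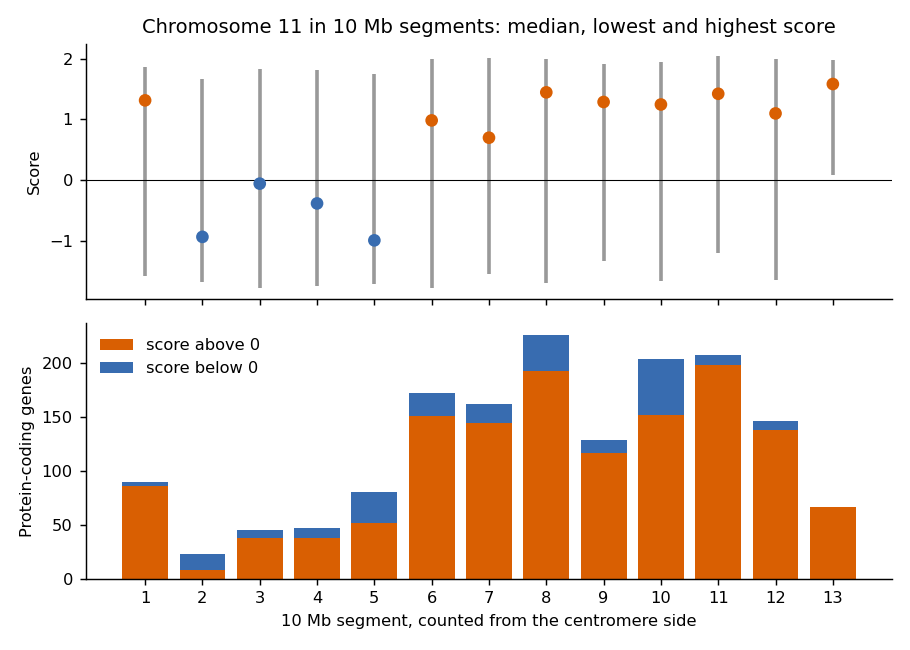
Upper panel: median score (point) and range from the lowest to the highest position (line) in each 10 Mb segment of chromosome 11; the first and the last segment are partly covered. Lower panel: protein-coding genes with a score above 0 (orange) and below 0 (blue). Segments 2 to 5 have medians below 0 and 23 to 81 genes each, and segments 6 to 13 have medians above 0.

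Domains, taken as runs of positions of the same sign at least 300 kb long, numbered 30 early and 27 late. Early domains covered 68.8 Mb, or 59.1% of the length in domains, and late domains 47.7 Mb. On the other autosomes early domains took 40.1%. The early domains of chromosome 11 had a median length of 1.57 Mb (95% order-statistic interval over domains 0.713 to 2.72), and those of the other autosomes 0.885 Mb (0.823 to 0.949). These 2 intervals overlap. Its late domains had a median length of 1.34 Mb (0.782 to 2.40), against 1.20 Mb (1.08 to 1.31). The minimum run sets these values in part. Without it the medians of chromosome 11 were 0.857 Mb early and 0.874 Mb late, and with 600 kb they were 2.06 and 1.68 Mb. Both kinds were denser in genes than elsewhere. Early domains held 1380 protein-coding genes, or 20.1 per Mb against 15.3 on the other autosomes, and late domains 206, or 4.32 per Mb against 3.52.

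Longer early domains had higher levels. The 13 early domains under 1 Mb had a median level of 0.73, the 4 of 1 to 2 Mb 1.27 and the 13 of 2 Mb or more 1.47. On the other autosomes the same classes had 0.67, 0.99 and 1.32. Late domains ran the other way, with -0.66, -0.93 and -1.22 on chromosome 11 and -0.60, -1.02 and -1.22 elsewhere. The part of the 300 kb smoothing in the levels of short domains was not tested.

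**Figure D3:**
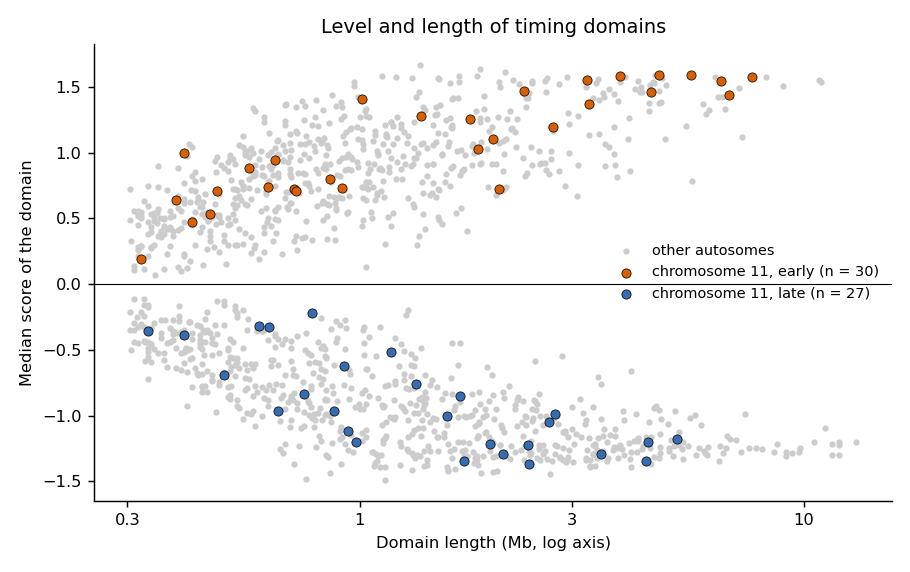
Median score of each timing domain against its length (log axis) for chromosome 11 (orange early, blue late) and the other autosomes (grey). The early domains of chromosome 11 of 2 Mb or more have a median level of 1.47, and its longest domain is 7.64 Mb.

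The 4 longest early domains all lay beyond 74 Mb. The longest reached the end of the measured chromosome, from 114321787 to 121957529 (7.64 Mb, median 1.58, 197 protein-coding genes). It held the Polycomb genes Cbx2 (1.25) and Cbx8 (1.27), the fatty acid synthase gene Fasn (1.58), the thymidine kinase gene Tk1 (1.55), Birc5 (1.69), which encodes survivin, and the actin gene Actg1 (1.63). The second ran from 82529859 to 89326626 (6.80 Mb, median 1.44, 103 genes). It held the acetyl-CoA carboxylase gene Acaca (1.40), the T-box genes Tbx2 (1.36) and Tbx4 (1.16), and the RNA-binding protein gene Msi2 (1.49). The next, from 74341588 to 80839491 (6.50 Mb, median 1.55, 124 genes), held the replication factor gene Rpa1 (1.85), the Polycomb gene Suz12 (1.71) and the neurofibromin gene Nf1 (1.18). The domain from 93805769 to 99383359 (5.58 Mb, median 1.60, 152 genes) held the Hoxb cluster, Top2a (1.63), which encodes topoisomerase II alpha, the licensing gene Cdc6 (1.62) and the receptor gene Erbb2 (1.74). Its median was the highest of the early domains.

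Late domains of the first 50 Mb held at most 11 protein-coding genes each. Of these 15 domains 6 were under 1 Mb, from 0.403 Mb at Spdl1 to 0.943 Mb at Ebf1. The longest ran from 12687109 to 17856027 (5.17 Mb, median -1.18) with 11 genes, among them the epidermal growth factor receptor gene Egfr (-0.42), the platelet protein gene Plek (-0.69) and Pom121l12 (-1.50). The domain from 36134812 to 40544955 (4.41 Mb, median -1.34) held 1 gene midpoint, that of the teneurin gene Tenm2 (-1.33). The domain from 40941358 to 43345289 (2.40 Mb, median -1.37) was the latest by median, and held the ATPase gene Atp10b (-1.45) and the inhibitory receptor gene Gabrb2 (-1.45). That from 46455698 to 48560550 (2.10 Mb, median -1.29) held the sarcoglycan gene Sgcd (-1.33) and the Tim family genes Timd4 (-1.21), Havcr1 (-1.20) and Timd2 (-0.99), which encode cell surface proteins of immune cells. Havcr2, of the same family, lay at the edge of this domain with -0.04, which is above 0 with 0 set to the autosomal median. The domain from 24146532 to 26113407 (1.97 Mb, median -1.22) held the latest position of the chromosome and no protein-coding gene. Meis1, a homeobox gene, was the only protein-coding gene with its midpoint in the domain from 18040352 to 19615889 (1.58 Mb), where it had -0.54.

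Beyond 50 Mb late domains lay between mostly early stretches, but some lay close together. An early run of 213 kb parted the late domain that ends at 63831032 from that starting at 64055143. An early domain of 0.460 Mb parted those that end at 109238764 and start at 109710133. The domain from 55695918 to 57413905 (1.72 Mb, median -1.35) held the glutamate receptor gene Gria1 (-1.38) and the neuromedin receptor gene Nmur2 (-0.58). That from 64055143 to 66809348 (2.75 Mb, median -0.99) held the dynein gene Dnah9 (-1.29), Shisa6 (-1.26), which encodes a glutamate receptor partner, and the muscle cofactor gene Myocd (-0.39). The domain from 89332204 to 93794334 (4.46 Mb, median -1.20) held 10 genes, among them the brain carbonic anhydrase relative Car10 (-1.32), Stxbp4 (-1.20), the kinesin gene Kif2b (-1.04) and the circadian factor gene Hlf (-0.76). That from 109710133 to 113200617 (3.49 Mb, median -1.30) held 11 genes, with 5 Abca transporter genes, the potassium channel genes Kcnj16 (-1.35) and Kcnj2 (-1.22), and Sox9 (-0.37), which directs cartilage and testis formation. Prkca, a protein kinase C gene, lay at -0.47 and the Wnt pathway gene Axin2 at -0.17 in the domain from 108060052 to 109238764 (1.18 Mb, median -0.52). Axin2, like every gene between -0.30 and 0, is above 0 with 0 set to the autosomal median.

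Genes in late domains sat at less late scores than the domains around them. The 206 protein-coding genes with midpoints in late domains had a median of -0.79, while the positions of those domains had -1.11. In 19 of the 26 late domains with genes the gene median lay above the position median. On the other autosomes the same medians were -0.85 and -1.14, with 419 of 638 domains, the same order as on chromosome 11. Sox9 was such a gene, at -0.37 in a domain with a median of -1.30, as was Egfr. In early domains the genes had a median of 1.54 and the positions 1.42.

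Borders between neighbouring early and late domains were about as wide as elsewhere. Of 46 borders 43 crossed from 0.5 to -0.5, over a median of 184 kb (quartiles 150 and 302 kb), against 179 kb (quartiles 144 and 253 kb) on the other autosomes. The narrowest, at 73347146 to 73352566, took 86.6 kb and separated the genes Trpv3, Aspa and Spata22 from the olfactory receptor cluster that starts with Olfr20. The second narrowest (109 kb) ended the Gria1 domain, and 1 at the keratin cluster, near Krt34 and Krt31, took 126 kb. The widest lay beside the zinc transporter gene Slc39a11 (748 kb) and at the end of the membrane trafficking gene Ehbp1 (638 kb). The smoothing width of 300 kb exceeds the median border, so a border narrower than it cannot be told from a step. The 3 borders without a width lay on both sides of the Fancl domain and at Slit3, where a side did not reach 0.5 or -0.5.

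Runs under 300 kb were left out of the domains. The longest late one, from 49135238 to 49405459 (270 kb, median -0.17), held 10 genes, among them Btnl9, Zfp62, Mgat1 and 7 olfactory receptor genes. Another, from 52700096 to 52964708 (265 kb, median -0.32), held no gene midpoint. The longest early one, from 63836582 to 64049139 (213 kb, median 0.27), held Hs3st3b1 and Cox10. A further one, from 17862060 to 18034671 (173 kb, median 0.16), held the DNA repair gene Etaa1 (0.21) between the Egfr and the Meis1 domains.

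Of 1602 protein-coding genes on chromosome 11, 1384 lay above 0, or 86.4%, against 73.5% over all chromosomes. Their median was 1.48, against 1.00 for the 18702 genes of the other autosomes. Below 0 lay 218 genes, where 26.5% did so over all chromosomes. Gene scores are values of the positions whose median chose the chromosome, so these differences are no separate findings. The same holds for later comparisons of its genes with those of other chromosomes. Of these 218, 96 (44.0%) lay in 3 domains, namely 47 in the keratin domain from 99388811 to 100044467 and 30 and 19 in the olfactory receptor domains from 73352566 to 74336248 and from 58437547 to 58770829. Without the genes named as olfactory receptors, keratins or keratin-associated proteins, 90.9% of 1469 genes lay above 0, against 76.8% over all chromosomes. Leaving these names out was a choice made after the data were seen. The genes nearest 0 were Olfr56 (-0.0033) and Olfr410 (-0.0087) below it and Krt31 (0.0042) and Olfr315 (0.0077) above it. With 0 set to the autosomal median, 51 genes changed side and 167 stayed late.

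Windows of chromosome 11 with 10 or more genes had higher medians than windows of the same class of gene number elsewhere. Windows with fewer genes lay close to theirs. The size of the difference depended on the window. In the 26 windows of 1 Mb with 10 to 19 protein-coding genes the median of the mean scores was 1.21 (95% order-statistic interval over windows 0.85 to 1.46), against 0.81 in 444 windows of the other autosomes. With 20 or more genes it was 1.54 (1.35 to 1.61) in 31 windows, against 1.33 in 233. With windows of 2 Mb this last difference fell to 0.0318 from 0.21, and that for 10 to 19 genes per Mb was 0.67 in place of 0.40. With 1 to 4 genes it was -0.89 in 25 windows against -0.93 in 770, and with no gene -1.30 in 9 windows against -1.25 in 260. With 5 to 9 genes it was 0.01 in 28 windows (interval -0.56 to 0.70), against -0.03 in 561, and windows of 0.5 Mb gave a difference of 0.28 here in place of 0.05. Windows with 20 or more genes made up 26.1% of the chromosome and 10.3% of the other autosomes. Class means of the other autosomes, weighted by the class shares of chromosome 11, gave a mean window score of 0.12 in place of -0.18. Chromosome 11 had 0.34. Weighted likewise, the share of windows above 0 was 53.2% in place of 40.2%, and was 58.8% on chromosome 11 (40.4% over all chromosomes). The top class is open, up to 62 genes in a window of chromosome 11, so gene numbers are not matched within it. A part of gene number in these differences was not tested. Windows share reads with their neighbours, so the intervals cover the spread of windows only. Across its 119 windows, gene number and mean score had a Spearman's rho of 0.85 (Pearson's r 0.68), and across 2268 windows of the other autosomes 0.78 (0.64). These are descriptions across windows of 1 pair of libraries, on a chromosome chosen for the median of these scores.

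**Figure D4:**
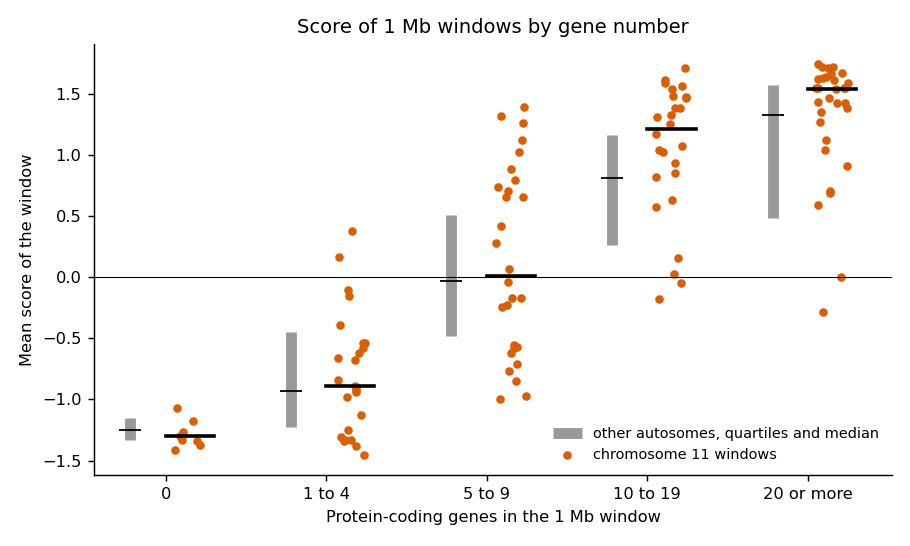
Mean score of 1 Mb windows by the number of protein-coding genes in them. Orange points are windows of chromosome 11 with their median as a line, and grey bars are quartiles of the other autosomes with their median; with 10 to 19 genes the medians are 1.21 and 0.81.

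Gene-dense windows with low scores were few. Of the windows with 10 or more genes 3 lay below 0. The window from 73 to 74 Mb held 34 genes, mostly olfactory receptors, and had -0.28. That from 46 to 47 Mb (14 genes, -0.18) held the Tim family genes, and that from 109 to 110 Mb (10 genes, -0.05) the start of the Abca cluster. In the other direction, 2 windows with 4 or fewer genes lay above 0. That from 8 to 9 Mb (3 genes, 0.38) held Tns3 and Pkd1l1, and that from 12 to 13 Mb (1 gene, 0.16) held Cobl.

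Genes listed for cell proliferation were early throughout, on a chromosome where 86.4% of genes were. All 25 genes of replication and repair lay above 0, with a median of 1.56, from the Fanconi anaemia gene Fancl at 0.07 and the helicase gene Brip1 at 0.58 to the replication factor gene Rpa1 at 1.85 and Trp53 at 1.95. Brca1 had 1.48, the repair gene Rad50 1.59 and the DNA polymerase subunit gene Pold2 1.64. All 19 cell cycle genes were early (median 1.61), from the cyclin gene Ccng1 (0.91) and Hmmr (0.94), which share a small early domain, to Tubd1 (1.78) and the mitotic kinase gene Aurkb (1.83). All 27 chromatin genes were early (median 1.63), with Bcl11a (0.06) and Ikzf1 (0.80), transcription factors of blood cells, lowest, and the telomere complex gene Ctc1 (1.82) and the acetyltransferase gene Kat7 (1.92) highest. All 23 genes of transcription and RNA handling were early (median 1.50), from Utp18 (0.59) and the Mediator gene Med31 (1.08) to the ribosomal protein gene Mrpl10 of mitochondria (1.81) and the initiation factor gene Eif4a1 (1.93). Polr2a, the gene of the largest subunit of RNA polymerase II, had 1.61. All 7 ribosomal protein genes (1.14 for Rpl38 to 1.63 for Rpl27) and all 10 proteasome genes (0.90 for Psme2b to 1.89 for Psme3) were early too. These lists cannot be read as set apart, since most genes of the chromosome were early and the lists were chosen with results of these data known. The lists are also loose, so their counts do not describe strict functional classes. That of the cell cycle counts Ttyh2 (1.26), and that of replication and repair counts Xpo1 (0.83) and Slfn9 (1.33).

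All genes listed for stem cell signalling and RNA binding were also early, on a chromosome where 86.4% of protein-coding genes were. This list of 12 ran from the deglycating kinase gene Fn3k (1.03) and the cytokine gene Osm (1.29) to Trim25 (1.73) and the antiproliferative gene Tob1 (1.80). Lif, the gene of the cytokine these cells are grown with, had 1.33, and Stat3, which encodes the factor it activates, 1.55.

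Developmental genes lay on both sides of 0, as did those of the chromosome at large. Of 31 genes 25 lay above 0, or 80.6% beside the 86.4% of all protein-coding genes of the chromosome, and the median was 1.64. The earliest were Wnt9a (1.85), a Wnt ligand gene, and the zinc finger gene Sp6 (1.84), and the neural factor gene Neurod2 had 1.73. Foxi1 (-0.58), a factor of inner ear and kidney, and Meis1 (-0.54) were the latest, followed by Egfr (-0.42) and Sox9 (-0.37). Ebf1 (-0.17), a B cell factor, and Otx1 (-0.07), a brain patterning gene, lay above 0 with 0 set to the autosomal median. The Bmp antagonist gene Nog was at 0.19, near the edge of the domain that holds Msi2. The 10 Hoxb genes lay within 1.48 (Hoxb1 and Hoxb2) and 1.58 (Hoxb13), with Hoxb9 at 1.52. The cluster is shorter than 300 kb, so these are not separate measurements.

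Immune genes were early about as often as all protein-coding genes of the chromosome. Of 36 genes 31 lay above 0, or 86.1% against 86.4% (median 1.56), from Timd4 (-1.21) and Havcr1 (-1.20) to the scavenger receptor gene Cd68 (1.93) and Stat5b (2.05). The type 2 cytokine genes Il4 (1.68), Il13 (1.67) and Il5 (1.46) were early next to Rad50 (1.59) and Kif3a (1.67). Rad50 and Kif3a, listed as neighbours of these cytokine genes, are counted among the 36. The hematopoietic cytokine genes Csf2 (0.15) and Il3 (0.16), in the same early domain, lay far lower. Il12b, which encodes a subunit of interleukin 12, had -0.67. The chemokine genes fell into 2 groups on opposite sides of 0. The 6 genes from Ccl2 to Ccl1 (82035577 to 82179812) had scores from -1.10 (Ccl8 and Ccl12) to -1.01 (Ccl2). The 5 from Ccl5 to Ccl4 (83525778 to 83664683) had 0.58 (Ccl4) to 1.25 (Ccl5), with Ccl9 at 0.98. All 8 schlafen genes, a family active in lymphocytes and antiviral defence, were early (median 1.04), from Slfn4 (0.74) and Slfn3 (0.80) to Slfn9 (1.33) and Slfn5 (1.39). All 12 genes of the Cd300 family were early (median 0.93). Cd300ld (0.70) and Cd300c (0.71) were lowest and Cd300lf (1.40) and Cd300lg (1.60) highest. Of the 12, all but Cd300lg, or 11, lay between 114889152 and 115135372. Like each chemokine group, this stretch is shorter than 300 kb, so its genes are not separate measurements. The schlafen genes spanned little more, from 82951349 to 83286726. The interferon-inducible GTPase genes split in level, from Ifi47 (0.08) and Tgtp2 (0.14) to Igtp (1.53) and Irgm1 (1.55), with all 6 above 0.

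In the globin and blood list 11 of 12 genes were early (median 1.19), or 91.7%, near the 86.4% of all protein-coding genes of the chromosome. Of the 12, 9 lay in 1 stretch from 32205415 to 32300873 and are not separate measurements. The alpha-globin genes Hba-a1 (1.19) and Hba-a2 (1.20) and the flanking genes Snrnp25 (1.04), Rhbdf1 (1.06), Mpg (1.11) and Nprl3 (1.15) lay close together between 32205415 and 32297310. Hba-a1 and Hba-a2 are near-identical copies, and the stretch from Snrnp25 to Hba-a2 is shorter than 300 kb. The band 3 gene Slc4a1 had 1.51 and the platelet integrin gene Itga2b 1.82. The exception was Lcp2 (-1.07), an adaptor of T cell receptor signalling, in the late domain of Dock2 (-0.85). All 5 imprinted genes were early, beside the same 86.4%, namely Commd1 and Zrsr1 (both 1.41), Ddc (1.12), Grb10 (0.80) and Cobl (0.38). Zrsr1 lies inside Commd1, and Ddc, Grb10 and Cobl lie together from 11814101 to 12465022, so these are not 5 separate measurements. Maternal and paternal copies are not told apart by these values.

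Of 29 genes of metabolism and hormones 25 lay above 0 (median 1.63), or 86.2%, near the 86.4% of all protein-coding genes of the chromosome. The glucose-6-phosphatase gene G6pc (1.88) and Tcap (1.87), which encodes a sarcomere protein, were highest. Hlf (-0.76) and the insulin-like growth factor binding protein genes Igfbp3 (-0.41) and Igfbp1 (-0.36) were lowest. Apoh, at -0.24, is above 0 with 0 set to the autosomal median. All 31 solute carrier genes were early (median 1.55), from Slc39a11 (0.20) and Slc22a4 (0.68) to Slc25a11 (1.81) and Slc38a10 (1.98). Among Slc genes of the other chromosomes 78.7% of 315 lay above 0.

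Long and neuronal genes lay on both sides of 0. Of 42 genes in this list 24 lay above 0, or 57.1%, where 86.4% of all protein-coding genes of the chromosome did, and the median was 0.43. Gabrb2 (-1.45) and Gabra6 (-1.38), whose products are subunits of chloride channels of inhibitory synapses, were among the latest. Atp1b2 (1.99), a sodium pump subunit gene, and the lipid transfer gene Pitpnc1 (1.84) were the earliest of the list. Of 8 potassium channel genes 5 were early, with Kcnab3 (1.80) and Kcnh4 (1.82) highest. All 6 Abca transporter genes were late, from Abca13 (-1.08) and Abca9 (-0.997) to Abca6 (-0.74) and Abca5 (-0.46). Of these 6, 5 lay close together between 109932206 and 110337723 and are not separate measurements. On the other chromosomes 5 of 10 Abca genes lay above 0, with a median of 0.35.

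By length, 9 of 23 genes of 300 kb or more lay above 0, or 39.1%, against 19.1% of 508 on the other autosomes. Of 93 genes of 100 to 300 kb 80.6% lay above 0, against 64.3%. Of 508 genes of 20 to 100 kb 91.3% did, against 81.0%, and of 978 under 20 kb 85.5%, against 72.5%. In each length class chromosome 11 had the higher share. The chromosome was chosen for the high median of these same scores, so this is no separate finding.

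Some genes, many of them long, had ends on opposite sides of 0. This held for 23 of 1602 genes, or 1.44%, against 2.97% over all chromosomes. The 23 had a median length of 127 kb. They included short genes near 0, such as Krt10 (0.02 and -0.07) and Krt31 (-0.04 and 0.0042). Those 2 do not cross with 0 set to the autosomal median. Tenm2 (36006656 to 37237053) had 1.46 at its lower end, -1.33 at its midpoint and -1.29 at its upper end. Slit3 (35121456 to 35708507), an axon guidance gene, ran from -0.37 to 0.99, with 0.71 at its midpoint. Kcnip1 (33629339 to 33993348), a potassium channel partner gene, went from 1.29 to -0.83. The follistatin-like gene Fstl4 (52764489 to 53192450) went from -0.41 to 1.55. Sgcd (46971077 to 47989451), with -1.58, -1.33 and -1.36, and Gria1 (57011571 to 57330244), with -1.43, -1.38 and -0.76, were late along their length. Msi2 (88339382 to 88718306), with 1.52, 1.49 and 1.60, and Rptor (119602905 to 119899591), a subunit gene of the mTOR complex, with 1.55, 1.43 and 1.81, were early along theirs.

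Keratin genes showed a late centre between early flanks. The type I keratins, filament proteins of epithelia and hair, and the keratin-associated genes share 1 cluster of 50 genes, from 99232761 to 100269951. Of the keratins 18 of 27 lay above 0 (median 0.44), and of the keratin-associated genes 0 of 23 (median -1.14). At the lower end Krt222 had 1.33 and Krt24 0.95, and the score fell through Krt28 (0.11) and Krt10 (-0.03) to Krt39 (-0.77) and Krt40 (-0.92). The keratin-associated genes in the centre ran from -1.39 (Krtap4-6) and -1.36 (Krtap4-7) to -0.46 (Krtap16-1) and -0.43 (Krtap17-1). The score rose again through Krt34 (-0.09) and Krt31 to Krt14 (1.52) and Krt17 (1.81), and reached 1.83 at Krt42. The keratins of hair and of simple or layered epithelia thus lay on both sides, and the whole change took place within about 1 Mb. Keratin-associated genes elsewhere were mostly late too, with 4 of 33 above 0.

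The olfactory receptor genes, a family of many similar copies expressed in the nose, formed 6 groups with unlike scores. How reads that match several copies were treated was not stated in the available sources. Of 83 genes 52 lay below 0 and the median was -0.20, which became 0.11 with 0 set to the autosomal median. The 30 genes from Olfr20 to Olfr412 (73350859 to 74365609) had a median of -1.17, with 28 below 0, and held the latest genes of the chromosome, Olfr395 (-1.69) and Olfr23 (-1.68). The 24 genes from 58454915 to 59614225 had a median of -0.17 with 16 below 0. The 19 from 49112777 to 49564858 had 0.09 with 8 below 0. Groups of 5, 2 and 3 genes, which start at 50969020, 52144593 and 87888959, lay wholly above 0, with medians of 0.55, 1.47 and 1.58, and held Olfr463 and Olfr462 (both 1.58), the earliest. On the other chromosomes 170 of 1026 olfactory receptor genes (16.6%) lay above 0, with a median of -0.88, against 37.3% on chromosome 11.

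Other families differed in how far they spread. The myosin heavy chain genes of muscle ran from Myh3 (1.15), Myh2 (0.34) and Myh1 (0.06) to Myh13 (-0.21), Myh4 (-0.23) and Myh8 (-0.32) across 67078273 to 67371587. Their 7-gene median of 0.06, with Myh10 (1.26) included, became -0.0324 with the upper end of each gene. Of 21 Zfp genes 18 were early (median 0.87), or 85.7%, beside 86.4% of all protein-coding genes of the chromosome and 89.7% of 369 Zfp genes elsewhere. Zfp735 (-1.55) and Zfp616 (-1.15) lay among the late olfactory receptor genes, and Zfp3 (1.71) and Zfp287 (1.95) were highest. The lipoxygenase genes Alox8 (1.38) and Alox12b (1.44) to Alox12e (1.59) and Alox15 (1.61) were all early, as were the 4 Wnt genes. Of 11 Trim genes Trim58 (-0.39) was late and Trim17 (0.79) next, and Trim80 (1.73) and Trim41 (1.74) were highest. Of 5 kinesin genes only Kif2b was late, and Kif3a and Kif1c (1.77) were highest.

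**Figure D5:**
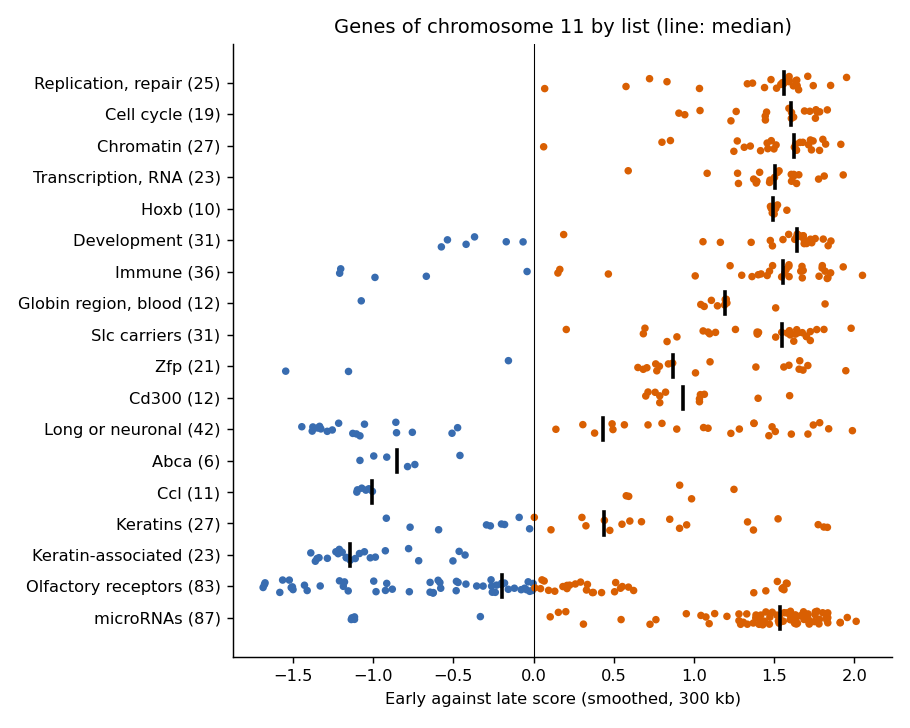
Score of each gene of chromosome 11 in the lists named at the left (points, orange above 0 and blue below; line, median; number of genes in brackets); the microRNA row shows the 87 of 88 genes with names of the form Mir and a number. Keratin-associated and Abca genes lie wholly below 0, and replication, cell cycle, chromatin and Hoxb genes wholly above it.

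MicroRNA genes, which give short RNAs that bind messenger RNAs through a seed at bases 2 to 8, were early with 5 exceptions. Of 88 genes 83 lay above 0, or 94.3%, against 74.7% over all chromosomes, and the median was 1.53. The late ones were a cluster between 28746198 and 28763820, known for its expression in pancreas, and Mir744 (-0.33), inside the span of the kinase gene Map2k4. Mature sequences are from RefSeq on GRCm38.p6, which held 87 of the 88 genes, and the seed is in capitals. The late cluster is shown first and then early genes, among them a pair with a shared seed.
mmu-miR-216a-5p (chr11:28757018-28757039, plus strand, score -1.13): uAAUCUCAgcuggcaacuguga
mmu-miR-216b-5p (chr11:28746204-28746225, plus strand, score -1.12): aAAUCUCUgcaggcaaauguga
mmu-miR-217-5p (chr11:28763761-28763783, plus strand, score -1.14): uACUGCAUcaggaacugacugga
mmu-miR-132-3p (chr11:75173723-75173744, plus strand, score 1.60): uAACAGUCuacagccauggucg
mmu-miR-212-3p (chr11:75173443-75173464, plus strand, score 1.60): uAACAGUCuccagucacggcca
mmu-miR-144-3p (chr11:78073047-78073066, plus strand, score 1.83): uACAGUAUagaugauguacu
mmu-miR-451a (chr11:78073186-78073207, plus strand, score 1.83): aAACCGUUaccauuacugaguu
mmu-miR-21a-5p (chr11:86584120-86584141, minus strand, score 1.71): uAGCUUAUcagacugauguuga
mmu-miR-10a-5p (chr11:96317186-96317208, plus strand, score 1.49): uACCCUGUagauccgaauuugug
The seeds of miR-132-3p and miR-212-3p are the same, and those of the late cluster differ from each other. Members of a cluster share a timing value because they lie far closer together than 300 kb. Mir10a lies inside the Hoxb cluster and had its score, and Mir144 and Mir451a, known from red blood cells, shared another. The lowest of the early ones were Mir6372 (0.10) and Mir146 (0.15).

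Other gene classes had the same order, which is likewise tied to the choice of the chromosome by these scores. On chromosome 11, 73.9% of 739 long noncoding RNA genes lay above 0, against 62.0% on the other autosomes. Of 405 pseudogenes 74.6% did, against 45.8%, and of 47 transfer RNA genes 93.6%, against 89.4%. Of 66 small nucleolar RNA genes 75.8% lay above 0, against 46.1%, and of 61 small nuclear RNA genes 75.4%, against 54.0%.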

How the data were processed

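BrdU-labelled DNA of 1 early and 1 late S phase library was sequenced. Reads were aligned with Bowtie2 to mm10, per the submitters' processing notes. The authors deposited 1 table of scores, early against late and smoothed over 300 kb; how the score was scaled, its depth and the treatment of reads with several matches were not stated in the available sources. Scores were used as deposited (Python 3.11.15, pandas 2.3.3, numpy 2.4.6, scipy 1.17.1). Domains were runs of the same sign of at least 300 kb, ended by gaps over 300 kb. Each gene was given the score found nearest its midpoint, within 100 kb, with RefSeq genes of GRCm38.p6, of which 348 on scaffolds were left out. Windows of 1 Mb needed 20 positions. Border width was the distance between scores of 0.5 and -0.5. Genes named were the 2 top and 2 bottom members per list, the extremes of the chromosome, the genes nearest 0, and list genes and the 3 longest genes of domains; other neighbours at borders and in windows were chosen after their values were seen. The members and lists were chosen with earlier results of these data known. With 1 library per fraction no test was made, and intervals cover positions, domains or windows only. The steps were tested on a simulated profile with known domains. Some genes are not reported here.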

Additional observations from a re-analysis of the deposited data

How the results depend on the processing

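Of 154 alternative values, 120 kept their direction and moved by less than the spread used, 31 moved further and 3 reversed. With 0 set to the autosomal median, the median score of chromosome 11 was 1.01, 65.6% of its positions and 89.6% of its protein-coding genes lay above 0, and the olfactory receptor median turned to 0.11. Over all annotated genes 81.6% lay above 0, and without olfactory receptor and keratin names, a choice made after the data were seen, 90.9%. By means in place of medians, the difference from the other autosomes in windows with 1 to 4 genes turned to -0.0212, and that with 20 or more genes was 0.41. With windows of 2 Mb the difference for 10 to 19 genes was 0.67 and that for 20 or more genes 0.0318, against 0.21 with 1 Mb, and with windows of 0.5 Mb that for 5 to 9 genes was 0.28, against 0.05. The median early domain was 0.857 Mb long with no minimum run, 2.06 Mb with 600 kb and 1.32 Mb with 0 set to the autosomal median, and the median late domain 0.874, 1.68 and 0.943 Mb. Borders between scores of 0.25 and -0.25 had a median width of 86.3 kb. With the upper gene end the myosin heavy chain median turned to -0.0324. Without its longest early domain the median of the chromosome was 0.54. The cause of these moves was not tested. No paired analysis was possible because each fraction had 1 library. The read depth is unknown, so counting error could not be given, and nothing shorter than 300 kb is resolved.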
